A study of Mus musculus with 16 samples.

Results

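Loss of the calcineurin regulatory subunit gene Ppp3r1 in skeletal muscle was compared with wild-type littermates on 8 Affymetrix Mouse Gene 1.0 arrays, out of 16 in the series, 1 array per mouse. The arrays were chosen by their labels: 4 were labelled Ppp3r1 knockout (KO, animals 331, 335, 414 and 416) and 4 were labelled Ppp3r1 wild type (WT, animals 334, 336, 413 and 415). All 8 mice were males on the C57Bl6J background, and the tissue was whole gastrocnemius, a calf muscle. Every mouse, WT included, ate standard chow and then a high-fat diet, in which butter fat supplied 40% of calories, for 8 weeks or longer, so each difference below was read in fat-fed muscle. Ages were not stated in the sources used here. Deletion was driven by a Cre recombinase under Mlc1f, the Myl1 gene, which is active in muscle fibres. The labels do not say whether WT littermates carried the Cre allele, so an effect of the allele and loss of Ppp3r1 cannot be told apart. The other 8 arrays, of a Ppp3cb line, were used for 1 alternative fit and to set the intensity floor.

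Calcineurin is a calcium- and calmodulin-dependent phosphatase made of a catalytic subunit (Ppp3ca, Ppp3cb or Ppp3cc) and a regulatory subunit, which in most tissues is encoded by Ppp3r1. It dephosphorylates NFAT transcription factors, which then enter the nucleus, and it acts together with MEF2 factors. In skeletal muscle this pathway is known for its part in the slow and oxidative gene programme and in the choice among myosin heavy chains, the motor proteins that define fibre types. Mouse gastrocnemius is mostly made of fast fibres, with type IIb (Myh4), IIx (Myh1) and IIa (Myh2) chains and few slow type I (Myh7) fibres.

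The values are log2 RMA intensities as deposited, where a difference of 1 is a doubling of intensity. Exactly 1 gene symbol was given for 21789 probe sets, and the 15767 of them (14422 genes) whose mean over the 8 arrays reached 6.18 were tested. Medians of the 8 arrays over all probe sets lay between 6.81 and 6.94. All 15 fibre markers checked, among them Ckm and Acta1, were measured, at means of 12.15 to 14.45, and their median difference between groups was -0.04. Arrays correlated between 0.9623 (KO 331 with KO 416) and 0.9909 (KO 416 with WT 415). KO arrays spread widely. KO 331 lay at least 0.5 below all WT arrays in 371 probe sets, KO 414 in 313, KO 416 in 89 and KO 335 in 22. On the other side KO 414 lay at least 0.5 above all WT arrays in 325, KO 331 in 89, KO 416 in 67 and KO 335 in 3.

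Ppp3r1 (probe set 10374415) checked the labels. Its log2 intensity was 9.28, 9.25, 8.98 and 9.19 in KO animals 331, 335, 414 and 416, and 9.57, 9.36, 9.39 and 9.64 in WT animals 334, 336, 413 and 415. Every KO array was below every WT array, and the difference was small, -0.32 (SE 0.12), or 1.25-fold lower (two-sided exact permutation p = 0.0286, the smallest that 4 against 4 arrays allow; limma adjusted p = 0.564). Without KO 414 the difference was -0.25 (exact permutation p = 0.0571), and permuted within each series of animal numbers the p was 0.0556, the smallest that scheme allows. Whole muscle also holds cells in which Mlc1f is not active, and whether the probe set covers the deleted exons was not stated in the sources used here. In such bulk RNA fewer cells of a type and less RNA per cell cannot be told apart. The catalytic subunits were near equal in the groups: Ppp3ca differed by -0.06 (SE 0.09), Ppp3cb by -0.07 (SE 0.09) and Ppp3cc by 0.04 (SE 0.14). The Ppp3cc difference turned to -0.02 without KO 414 and to -0.05 without WT 336. Over 34 measured genes of the calcineurin, NFAT and MEF2 pathway, 24 were lower and 10 higher in KO, with a median of -0.08 (-0.04 without KO 331), and with 1 probe set per gene Ppp3r1 itself was the 1 member whose groups did not overlap. Over all tested probe sets 45.4% were lower and 4.78% had groups without overlap.

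Across the transcriptome the largest difference was the lower level of the type IIa myosin Myh2, followed by Mybph among the lower genes and by Atp1b4 among the higher ones, counting genes whose groups did not overlap. In the limma fit of these 8 arrays 0 of 15767 probe sets (0%) passed an adjusted p under 0.05, and Myh2 came closest (limma adjusted p = 0.0706). At an unadjusted limma p under 0.05 there were 1351 probe sets (8.57%), 777 higher (4.93%) and 574 lower (3.64%) in KO. The genes below are therefore given by their per-array values, with emphasis on those for which all 4 KO arrays lay on 1 side of all 4 WT arrays. That held for 754 probe sets (4.78%), with 493 above (3.13%) and 261 below (1.66%). With a difference of at least 0.5 as well it held for 62 (0.393%), and here more were lower (39, 0.247%) than higher (23, 0.146%).

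These counts depended on single animals. Without KO 414 there were 814 probe sets at an unadjusted limma p under 0.05, and without WT 334 there were 652. The count of 62 became 38 without KO 414, 131 without KO 335, 210 without KO 416, 118 without WT 336 and 120 without WT 415. The count of 754 became 1402 without KO 331, 1186 without KO 335, 1742 without KO 416, 1924 without WT 336 and 1344 without WT 415, since fewer arrays have to be separated. When each array was centred on its own median the direction split turned, with 337 above and 521 below among 858 without overlap, and 575 higher and 871 lower among 1446 at an unadjusted limma p under 0.05. The split at an unadjusted limma p under 0.05 also turned without KO 416, to 775 higher and 1205 lower, and that without overlap to 818 above and 924 below. The median difference over all tested probe sets was 0.018 as deposited and 0.001 after that centring.

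**Figure D1:**
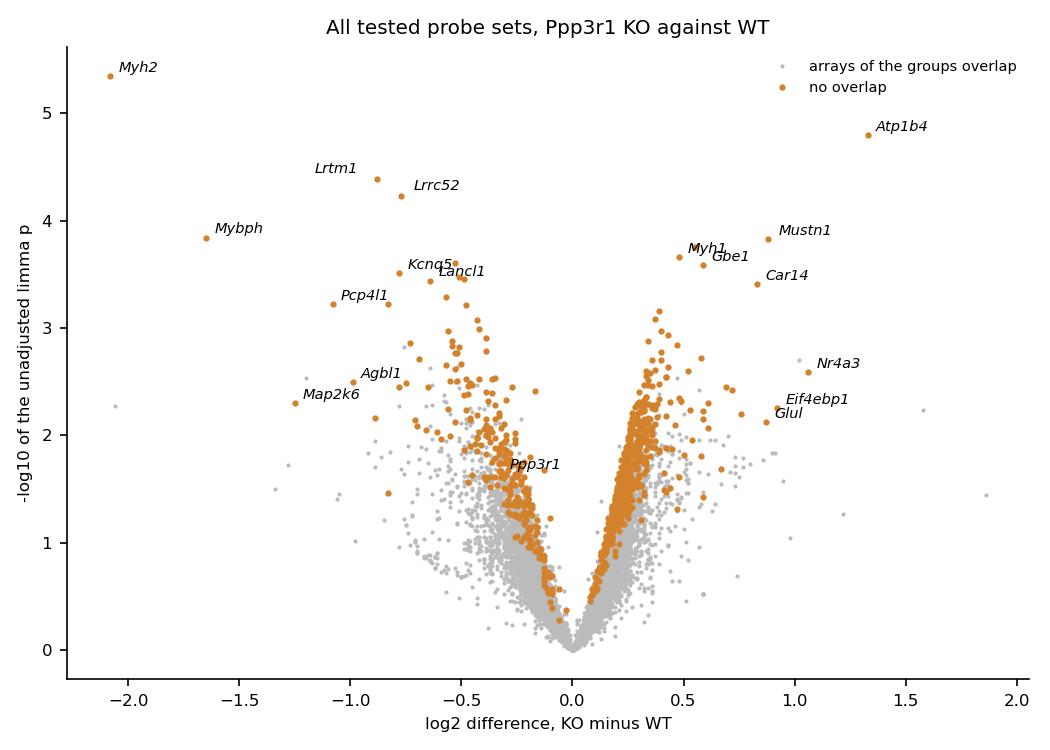
Log2 difference (KO minus WT, x axis) against -log10 of the unadjusted limma p (y axis) for the 15767 tested probe sets. Orange points are the 754 probe sets with no overlap between the 4 KO and 4 WT arrays; Myh2 at -2.08 and Atp1b4 at 1.33 have the smallest p on their sides.

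Among the adult myosin heavy chains Myh2 was lower and Myh1 higher in every KO mouse, while Myh4 and Myh7 overlapped between groups. Myh2 (probe set 10377055), the chain of fast oxidative type IIa fibres, had log2 intensities of 9.85, 10.71, 9.46 and 9.86 in KO animals 331, 335, 414 and 416, and 12.37, 12.40, 12.15 and 11.30 in WT animals 334, 336, 413 and 415. The groups were apart by 0.59 at their nearest arrays, KO 335 and WT 415. The difference was -2.08 (SE 0.27), or 4.24-fold lower (limma adjusted p = 0.0706), and it was -2.10 in the animals numbered in the 300s and -2.06 in those in the 400s. With each array left out in turn it ran from -2.33 to -1.91, and its limma adjusted p from 0.00611 without WT 415 to 0.491 without WT 334. Myh1, the type IIx chain, showed the opposite order, with 12.87, 13.23, 13.09 and 13.25 in KO and 12.76, 12.67, 12.62 and 12.47 in WT. All 4 KO arrays were above all 4 WT arrays, by 0.48 on average (SE 0.09, limma adjusted p = 0.406). Myh4, the IIb chain, overlapped between the groups, at 13.99 to 14.05 in KO and 14.04 to 14.15 in WT, with a difference of -0.06 (SE 0.04). Myh7, the slow type I chain, was 10.13, 10.61, 9.86 and 8.71 in KO and 9.74, 9.65, 10.36 and 7.54 in WT, so that the groups overlapped. Its difference of 0.51 (SE 0.52) became -0.09 without WT 415. Myosin heavy chain genes are close in sequence, and signal shared between their probe sets was not tested.

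Of 19 slow-fibre genes 16 were higher in KO, with a median of 0.24, but 0 had groups without overlap, beside 54.6% and 4.78% of all tested probe sets. WT 415 stood 0.88 below the WT mean over this list, and without it the median was 0.02. Of 20 fast-fibre genes 14 were lower (median -0.08, or -0.03 without KO 414), and 5 of them lay below WT on every KO array, beside 45.4% and 1.66% of all tested probe sets. They were Myh2, Myl1, the calcium buffer Pvalb (-0.13), the tropomyosin Tpm1 (-0.10, named after its values were seen) and Casq1, described with calcium handling.

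Myh2 and Mybph were lower and Myh1 and Atp1b4 higher in every KO mouse, while Myh4, a neighbouring fast myosin gene, overlapped between groups. Among genes without overlap, Atp1b4 leads the higher genes and Mybph the lower ones after Myh2. The upstream regions of the 3 neighbouring fast myosin genes and of Atp1b4 and Mybph are therefore shown. Each is the 250 bases before the RefSeq gene start in GRCm38.p6, on the plus strand: chr11:67170777-67171026 for Myh2, chr11:67199852-67200101 for Myh1, chr11:67237562-67237811 for Myh4, chrX:38315872-38316121 for Atp1b4 and chr1:134193198-134193447 for Mybph. Capitals mark GGAAA, the core that NFAT factors are known to bind, on either strand, and the MEF2 consensus on either strand.
Myh2: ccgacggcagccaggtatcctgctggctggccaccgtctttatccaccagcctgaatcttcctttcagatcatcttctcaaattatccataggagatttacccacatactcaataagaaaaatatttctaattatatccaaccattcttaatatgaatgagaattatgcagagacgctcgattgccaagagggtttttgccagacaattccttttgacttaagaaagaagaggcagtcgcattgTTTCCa
Myh1: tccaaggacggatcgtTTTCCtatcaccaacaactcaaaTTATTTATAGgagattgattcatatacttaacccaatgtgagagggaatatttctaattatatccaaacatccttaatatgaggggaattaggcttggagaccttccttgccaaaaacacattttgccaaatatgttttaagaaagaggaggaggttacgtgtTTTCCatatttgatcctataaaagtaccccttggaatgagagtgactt
Myh4: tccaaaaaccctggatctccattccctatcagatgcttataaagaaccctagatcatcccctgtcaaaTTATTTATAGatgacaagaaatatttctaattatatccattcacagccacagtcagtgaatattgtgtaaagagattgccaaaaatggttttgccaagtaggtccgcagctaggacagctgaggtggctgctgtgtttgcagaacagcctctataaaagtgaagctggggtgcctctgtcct
Atp1b4: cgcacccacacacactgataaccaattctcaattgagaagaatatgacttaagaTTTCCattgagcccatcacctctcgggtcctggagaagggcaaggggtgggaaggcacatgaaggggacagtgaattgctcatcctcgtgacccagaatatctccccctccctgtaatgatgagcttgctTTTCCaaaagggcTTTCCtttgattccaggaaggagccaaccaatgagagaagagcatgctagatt
Mybph: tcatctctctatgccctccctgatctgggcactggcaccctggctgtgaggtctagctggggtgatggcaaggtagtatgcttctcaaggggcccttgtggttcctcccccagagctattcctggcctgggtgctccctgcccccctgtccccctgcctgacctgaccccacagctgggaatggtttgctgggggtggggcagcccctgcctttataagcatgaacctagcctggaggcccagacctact
The GGAAA core occurred 1 time for Myh2, 2 times for Myh1, 0 times for Myh4, 3 times for Atp1b4 and 0 times for Mybph, where 55.6% of all 32851 RefSeq windows of the same length hold at least 1. The MEF2 consensus, which 2.92% of windows hold, occurred 1 time each for Myh1 and Myh4 and in none of the other 3. No GGAAA match overlaps a MEF2 match in these windows. A match is a description of letters and not a binding site.

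**Figure D2:**
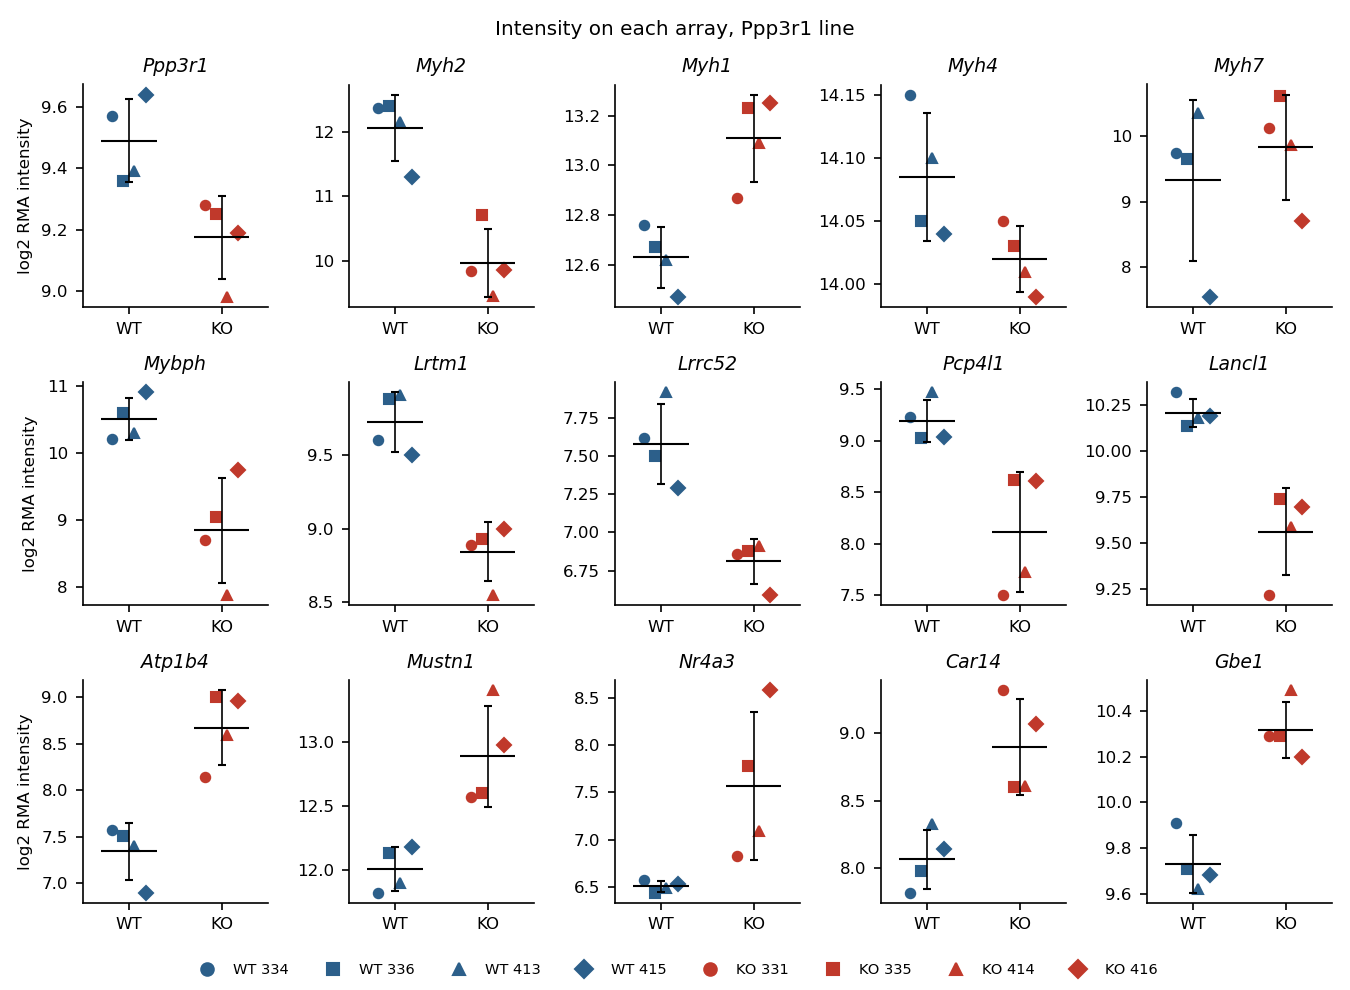
Log2 RMA intensity (y axis, own scale in each panel) on each of the 4 WT (blue) and 4 KO (red) arrays for 15 genes, with the group mean and SD as a bar. Myh7 and Myh4 overlap between groups, and the other 13 genes do not.

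Genes with lower intensity in KO included thick-filament, signalling and membrane proteins. Mybph, myosin-binding protein H of the thick filament, was 8.70, 9.05, 7.89 and 9.75 in KO and 10.21, 10.60, 10.30 and 10.90 in WT. No KO array reached a WT array, and the difference was -1.65 (SE 0.31), or 3.15-fold lower (limma adjusted p = 0.39). With each array left out in turn it ran from -1.95 to -1.34. It was called without KO 416, the KO array nearest to WT (limma adjusted p = 0.0385), while without WT 334 the limma adjusted p was 0.961. Lrtm1, a leucine-rich repeat membrane protein, was tighter within groups: 8.89, 8.93, 8.55 and 9.00 in KO and 9.60, 9.88, 9.91 and 9.50 in WT. It was lower by 0.49 even between the nearest arrays, with a mean difference of -0.88 (SE 0.14, limma adjusted p = 0.215). Lrrc52, a leucine-rich repeat protein related to the auxiliary subunits of large-conductance potassium channels, was 6.86, 6.88, 6.91 and 6.59 in KO and 7.62, 7.50, 7.92 and 7.29 in WT, a difference of -0.77 (SE 0.13, limma adjusted p = 0.233). Here 3 KO arrays lay within 0.05 of each other and animal 416 was lower still, so the order of the KO animals was not that of Mybph.

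Pcp4l1, a relative of the calmodulin regulator Pcp4, was 7.50, 8.62, 7.72 and 8.61 in KO and 9.23, 9.03, 9.47 and 9.04 in WT, with a difference of -1.08 (SE 0.24). Kcnq5, a voltage-gated potassium channel subunit, was 8.43, 8.30, 7.85 and 8.60 in KO and 9.20, 9.00, 8.88 and 9.20 in WT, with a difference of -0.78 (SE 0.16). In both genes KO 414 was among the lowest arrays and the WT arrays lay close together. Lancl1, a glutathione-binding protein, was 9.22, 9.74, 9.59 and 9.70 in KO and 10.32, 10.14, 10.18 and 10.19 in WT, lower by 0.40 between the nearest arrays and by -0.64 in the mean (SE 0.13). Dkk3, a secreted protein of the Dickkopf family, was 7.54, 7.91, 7.13 and 7.87 in KO and 8.32, 8.77, 8.13 and 8.55 in WT, with a difference of -0.83 (SE 0.18). The limma adjusted p of these 4 genes lay between 0.406 and 0.509.

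In a further set of lower genes animals 331 and 414 lay farthest from WT. Map2k6, the kinase that activates p38, was 8.16, 9.09, 7.21 and 9.42 in KO and 10.05, 9.57, 9.63 and 9.64 in WT. All KO arrays were below WT, but KO 416 by only 0.16, and the difference was -1.25 (SE 0.37, limma adjusted p = 0.564), or -0.83 without KO 414. The same order, KO 414 lowest, then 331, then 335, and 416 nearest to WT, was seen in Agbl1, a carboxypeptidase that trims polyglutamate chains of tubulin (7.57, 8.17, 6.86 and 8.53 in KO, 8.64 to 8.87 in WT). It was also seen in Itm2a, a membrane protein of myogenic cells (8.65, 9.11, 7.81 and 9.50 in KO, 9.56 to 9.78 in WT), whose difference of -0.89 became -0.57 without KO 414. Slc41a3, a magnesium transporter, was 10.75, 11.63, 9.58 and 11.65 in KO against 11.67 to 11.82 in WT, and its difference of -0.83 (SE 0.35) became -0.39 without KO 414. Prkag3, the regulatory subunit of AMP-activated kinase that is typical of fast glycolytic muscle, was 11.12, 11.46, 10.35 and 11.32 in KO and 11.55 to 11.88 in WT, a difference of -0.61 (SE 0.20), or -0.37 without KO 414. Dynll2, a dynein light chain, and Styx, a phosphatase-like protein without catalytic activity, differed by -0.70 (SE 0.22) and -0.75 (SE 0.21), and the second Styx probe set by -0.78 (SE 0.22). Gpam, which starts glycerolipid synthesis at the mitochondrion, followed another order, with KO 331 lowest at 9.79 and the other KO arrays at 10.25 to 10.37 against 10.70 to 10.78 in WT. Rnf128, a ubiquitin ligase, was even in KO, at 7.78 to 7.96 against 8.14 to 8.70 in WT (difference -0.57, SE 0.12).

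Among genes without overlap, those with higher intensity in KO were led by Atp1b4. A larger difference, 1.58, occurred in the atrophy and FoxO list described below, in a gene whose groups overlapped. Atp1b4, of the sodium pump beta-subunit family but in placental mammals known as a protein of the muscle nuclear envelope, was 8.14, 9.00, 8.59 and 8.96 in KO and 7.57, 7.51, 7.40 and 6.90 in WT. The nearest arrays, KO 331 and WT 334, were 0.57 apart. The difference was 1.33 (SE 0.20), or 2.52-fold higher (limma adjusted p = 0.125). With each array left out in turn it ran from 1.18 to 1.51, and its limma adjusted p from 0.0173 to 0.541. The lowest p was without KO 331, the KO array nearest to WT, where Atp1b4 was called. Mustn1, a nuclear protein of developing and regenerating muscle, was 12.57, 12.60, 13.41 and 12.98 in KO and 11.82, 12.13, 11.90 and 12.18 in WT, with a difference of 0.88 (SE 0.16, limma adjusted p = 0.39). Car14, a membrane carbonic anhydrase, was 9.32, 8.60, 8.61 and 9.07 in KO and 7.82, 7.98, 8.33 and 8.14 in WT (0.83, SE 0.17). Both genes were higher in every KO mouse. Gbe1, the glycogen branching enzyme, had close values in KO, 10.29, 10.29, 10.49 and 10.20, against 9.91, 9.71, 9.62 and 9.68 in WT, with a difference of 0.59 (SE 0.12). St6galnac4, a sialyltransferase, was 7.67, 7.48, 7.93 and 7.78 in KO and 7.12 to 7.22 in WT (0.55, SE 0.10, limma adjusted p = 0.395).

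Most of the other higher genes varied more among KO than among WT mice. Nr4a3, an orphan nuclear receptor of the immediate early class, was 6.83, 7.78, 7.09 and 8.58 in KO and 6.44 to 6.57 in WT, with SDs of 0.78 and 0.06. Eif4ebp1, a repressor of cap-dependent translation, was 10.41, 9.89, 11.49 and 9.98 in KO and 9.43 to 9.65 in WT, and its difference of 0.92 (SE 0.28) became 0.57 without KO 414. The KO animal with the highest value was 416 for the first and 414 for the second, so no single mouse stood for all of these genes. Glul, glutamine synthetase, was 12.04, 10.67, 11.61 and 10.66 in KO against 10.08 to 10.64 in WT, and KO 335 and 416 lay just above the highest WT array. Its second probe set was 11.52, 10.11, 10.73 and 10.11 in KO against 9.91 to 10.11 in WT, with KO 335 and 416 level with the highest WT arrays. The difference was 0.87 (SE 0.27) in the first and 0.59 (SE 0.25) in the second. Ddit4, an inhibitor of mTORC1, was 8.28, 7.31, 7.99 and 7.30 in KO against 6.72 to 7.20 in WT, the same order of animals. Xirp1, an actin-binding protein of cell junctions and damaged myofibrils, was 10.02, 9.88, 11.15 and 10.66 in KO against 9.54 to 9.81 in WT. Pde8a, a cAMP phosphodiesterase, likewise had its higher KO values in the 400s (8.90 and 8.37) and its lower ones in the 300s (8.00 and 7.98), against 7.46 to 7.97 in WT. Akt1, Pnpla2 (adipose triglyceride lipase) and Nos1 (neuronal nitric oxide synthase) were higher by 0.67 (SE 0.25), 0.61 (SE 0.18) and 0.59 (SE 0.18), with gaps between the nearest arrays under 0.01 in each. Akt1 was 0.40 without KO 414, and Nos1 varied more among WT (SD 0.39) than among KO mice (SD 0.17).

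Small but tight differences also occurred, mostly at low intensity. Plcg2, a phospholipase C of blood cells, lay between 6.92 and 6.98 in KO and between 6.48 and 6.67 in WT. Onecut3, a transcription factor of neurons and liver, was 7.06 to 7.13 in KO against 6.45 to 6.84 in WT, and Zbtb48, a telomere-binding zinc finger protein, was 7.07 to 7.23 against 6.65 to 6.86. Ppp1r3d, which targets protein phosphatase 1 to glycogen, lay between 7.75 and 7.84 in KO and 7.48 and 7.56 in WT (0.25, SE 0.08). In these 4 genes the nearest arrays of the groups were 0.19 to 0.25 apart, and the limma adjusted p was 0.564 in each. Of the 493 probe sets above WT, WT 334 was the array farthest from KO in 59.6%, and of the 261 below WT in 62.8%. 

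Most energy metabolism genes had lower means in KO muscle, but not in every KO mouse. Of 74 subunits of oxidative phosphorylation, the mitochondrial chain that makes ATP, 70 were lower (median -0.16) and 6 were below WT on every array, against 45.4% of all tested probe sets lower, a median of 0.018 and the 1.66% below WT. By mouse, the median over the 74 genes relative to the WT mean was -0.35 in KO 331, -0.02 in KO 335, -0.34 in KO 414 and 0.08 in KO 416, while WT mice lay between -0.08 and 0.10. So 2 KO mice were lower than all WT mice and 2 were not. Ndufs5, of complex I, was separated in all 4 (7.77, 8.20, 8.02 and 8.25 in KO, 8.44 to 8.74 in WT; difference -0.51, SE 0.13). Cycs, cytochrome c, was 13.17, 13.35, 13.02 and 13.33 in KO against 13.42 to 13.59 in WT, and its second probe set gave -0.33 (SE 0.10) beside -0.27 (SE 0.08).

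The citrate cycle had the same order of mice. Over 26 genes of the citrate cycle and pyruvate oxidation 23 were lower (median -0.20), with medians of -0.44 in KO 331, -0.04 in KO 335, -0.26 in KO 414 and 0.09 in KO 416. Without KO 331 the median was -0.07. Dld, the shared dehydrogenase subunit of these complexes, was 9.41, 9.65, 9.39 and 9.71 in KO against 9.75 to 10.35 in WT. Fatty acid uptake and oxidation differed in pattern: 22 of 29 genes were lower (median -0.20), with KO 331 at -0.52, KO 335 at -0.21, KO 414 near the WT mean and KO 416 at 0.06. The median was -0.07 without KO 331, and it was -0.47 within the 300s and 0.08 within the 400s, so the direction turned between the number series. Decr1, an enzyme needed for unsaturated fatty acids, was 8.96, 9.44, 9.25 and 9.58 in KO against 9.67 to 10.11 in WT, a difference of -0.55 (SE 0.15). Esrrg, a nuclear receptor of oxidative muscle genes, was 7.43, 7.98, 7.62 and 7.88 in KO against 8.06 to 8.40 in WT (-0.47, SE 0.13). Glycolysis genes were lower in 12 of 17 (median -0.08, or -0.04 without KO 414), and the mitochondrial ribosome in 55 of 74 (median -0.05, or -0.01 without KO 331). Leaving out each array in turn kept the median of oxidative phosphorylation below 0, from -0.24 without KO 416 to -0.08 without KO 331.

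**Figure D3:**
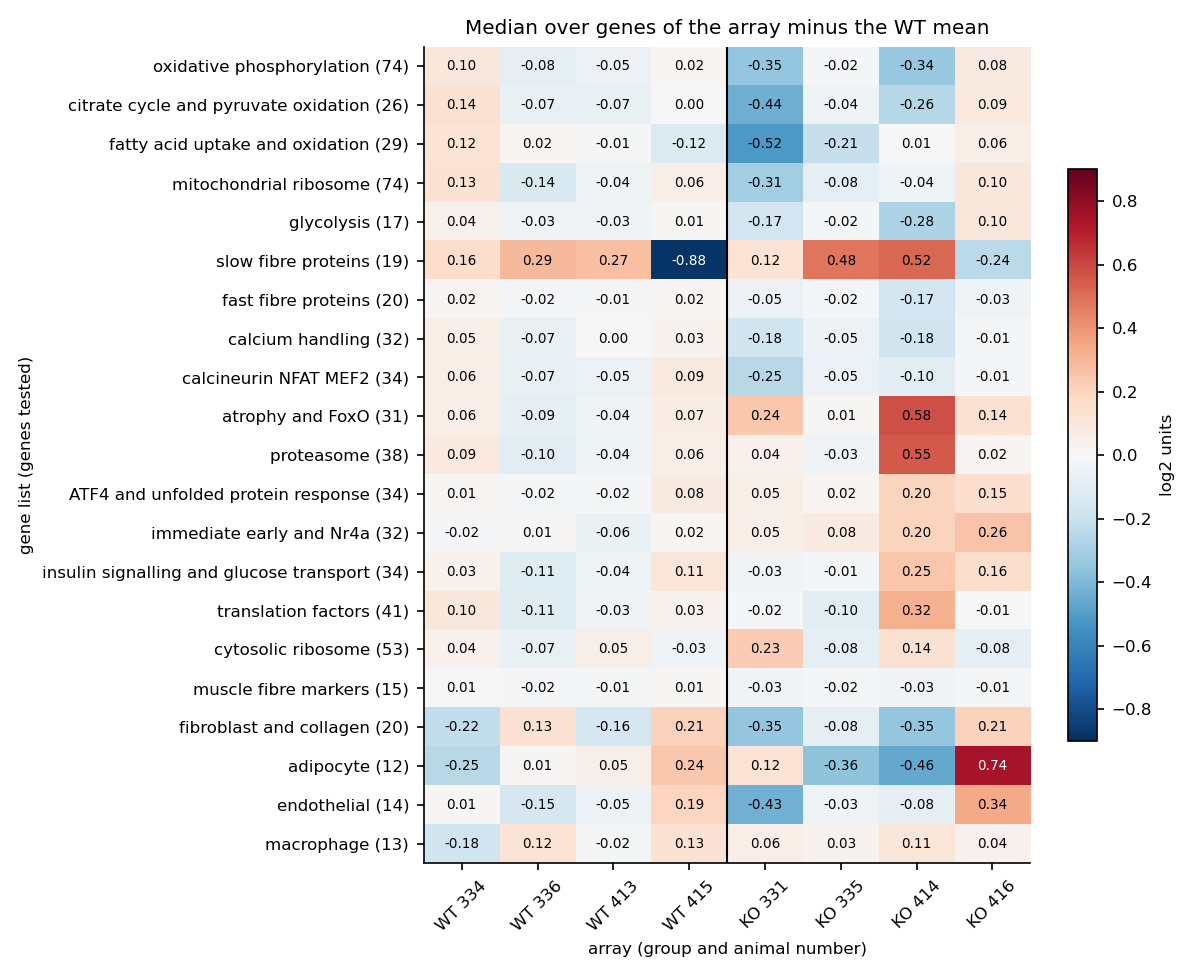
Median over the genes of each list (rows, number of tested genes in brackets) of an array's log2 intensity minus the mean of the 4 WT arrays, for each array (columns). Blue is lower and red higher; oxidative phosphorylation is lowest in KO 331 at -0.35 and KO 414 at -0.34, and the atrophy and proteasome lists are reddest in KO 414 at 0.58 and 0.55.

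Genes of calcium release and storage held several members below WT on every array. Of 32 genes 22 were lower (median -0.09), and 7 had no overlap with WT, all of them lower, beside 45.4% lower and 1.66% below WT on every array over all tested probe sets. The median was -0.05 without KO 331 and -0.15 without KO 335. Stac3, which couples the surface calcium channel to the ryanodine receptor, was 10.38, 10.86, 10.26 and 10.79 in KO and 10.99 to 11.12 in WT (-0.49, SE 0.14). Mrln, the micropeptide myoregulin that inhibits the calcium pump, was 10.34, 10.54, 10.06 and 10.33 in KO and 10.63 to 10.88 in WT (-0.45, SE 0.12). These 2 genes differed in all 4 KO mice, KO 335 being the nearest to WT. Jph2, which holds the junctional membranes together, was 10.28, 10.66, 9.66 and 10.64 against 10.69 to 10.84, and Casq1, the calcium store protein of fast fibres, was 13.49, 13.76, 12.96 and 13.82 against 13.83 to 13.96. In both KO 414 was far lower than the rest, and without it the differences of -0.47 and -0.37 became -0.26 and -0.19. The second Jph2 probe set differed by -0.55 (SE 0.20), but its groups overlapped, with KO 416 at 10.11 against 10.03 to 10.24 in WT.

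Lists of protein breakdown and stress did not share a direction. Of 39 autophagy and lysosome genes 20 were higher and 19 lower, and of 34 heat shock and chaperone genes 12 were higher and 22 lower (median -0.05). Of 31 genes of the atrophy and FoxO programme 23 were higher (median 0.28), 12 at an unadjusted limma p under 0.05 and 3 with no overlap, beside 54.6%, 4.93% and 3.13% over all tested probe sets. The medians were 0.24 in KO 331, 0.01 in KO 335, 0.58 in KO 414 and 0.14 in KO 416, and the list median was 0.09 without KO 414. Of 38 proteasome genes 33 were higher (median 0.13), but 0 reached an unadjusted limma p under 0.05. That median came from KO 414 at 0.55, the other KO mice lying between -0.03 and 0.04, and it was -0.02 without KO 414. Of 34 genes of the ATF4 and unfolded protein responses 23 were higher (median 0.12, or 0.08 without KO 414) and 5 were above WT on every array, beside 3.13% of all tested probe sets. Among them Slc7a5, a leucine transporter, was 7.85, 7.82, 8.22 and 7.93 against 7.39 to 7.76, and Trib3, a pseudokinase induced by ATF4, was 7.46, 7.12, 7.17 and 7.13 against 6.73 to 7.06. Dnajb9, a chaperone of the endoplasmic reticulum, was 9.87 to 10.11 against 9.22 to 9.83, and its difference of 0.31 became 0.16 without WT 336. Among 32 immediate early genes 30 had positive differences (median 0.17), but only 5 were higher at an unadjusted limma p under 0.05 and 2 lay above WT on every array. Over all tested probe sets these shares were 54.6%, 4.93% and 3.13%. The array medians of the list were 0.05 and 0.08 in KO 331 and 335 and 0.20 and 0.26 in KO 414 and 416.

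Other lists held a few separated genes or none, where 4.78% of all tested probe sets had groups without overlap. Of 34 insulin signalling genes 24 were higher (median 0.08, or 0.03 without KO 414), and lipid synthesis was lower in 16 of 28 with Gpam below and Lpin1, a phosphatidate phosphatase, above WT (11.81, 11.32, 12.31 and 11.42 in KO, 11.07 to 11.31 in WT; difference 0.50, or 0.31 without KO 414). At the synapse Chrne, the adult acetylcholine receptor subunit, was 8.68 to 8.89 in KO and 9.02 to 9.39 in WT (-0.38, SE 0.12), and Fgfbp1, a growth factor carrier of muscle, was 5.86 to 6.19 against 6.33 to 6.54. The KO mean of Fgfbp1, 6.04, was below the intensity floor of 6.18, so it was tested only through its WT level. Over the 25 genes of the junction and denervation list 14 were higher and 11 lower, 3 and 2 of them at an unadjusted limma p under 0.05. Over all tested probe sets 4.93% were higher and 3.64% lower at that p. Among muscle channels Kcnn3, a calcium-activated potassium channel that denervated muscle is known to express, was 7.49 to 7.85 in KO and 7.07 to 7.47 in WT (0.43, SE 0.11). Fxyd6, a regulator of the sodium pump, was 8.93 to 9.22 against 9.25 to 9.81 (-0.46, SE 0.14), and Kcnma1, the large-conductance potassium channel, was 9.17 to 9.54 against 9.62 to 9.77 (-0.27, SE 0.12). Cytosolic ribosomal proteins were higher in 40 of 53 by a median of 0.06 (0.01 without KO 331), with Rpl10 at 0.28 (SE 0.09). Splicing, clock, cell cycle and interferon lists had medians between -0.01 and 0.04, and 0 clock or cell cycle genes had groups without overlap.

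Ostn, the muscle-secreted peptide osteocrin, overlapped between groups and is named after its values were seen, as the largest difference next to Myh2. It was 7.82, 9.16, 6.75 and 10.74 in KO and 10.54 to 10.88 in WT, so that 3 KO mice were far below WT and KO 416 was at the WT level. The mean difference was -2.06.

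Markers of cells other than fibres varied by mouse. Summed intensity of the 12 measured adipocyte markers lay between 14.17 and 14.56 in KO and between 14.19 and 14.52 in WT, and 1 of 13 markers on the array was below the floor. The highest marker had a mean of 14.01, so this sum mostly reflects 1 marker and says little of the others. Adipoq, for example, lay between 6.85 and 8.54 in KO and between 7.24 and 8.40 in WT. Relative to WT the median over the 12 adipocyte markers was 0.74 in KO 416 and -0.46 in KO 414, the 2 extremes of all 8 arrays. The 14 endothelial markers, all measured, had summed levels of 12.24 to 13.07 in KO and 12.63 to 12.95 in WT, with medians of -0.43 in KO 331 and 0.34 in KO 416, and the 20 fibroblast markers had 13.67 to 14.16 in KO and 13.84 to 14.25 in WT. In the fibroblast list KO 331 and KO 414 were each at -0.35 and KO 416 at 0.21, the same 2 mice being low as in oxidative metabolism and Map2k6, and the part of other cells in those results was not tested. Fibre markers, by contrast, summed to 17.63 to 17.73 in KO and 17.71 to 17.75 in WT. Macrophage markers summed to 10.79 to 10.97 in KO and 10.57 to 10.91 in WT, with 3 of 16 below the floor. Of 12 lymphocyte markers 6 and of 11 neutrophil markers 7 were below the floor. The medians of those tested were 0.19 for lymphocytes, with KO 331 at 0.53 and WT 336 at 0.25, and 0.21 for neutrophils, while tendon, pericyte, erythroid, Schwann and satellite cell lists had medians between -0.10 and 0.13.

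The 8 mice carry 2 series of animal numbers, the 300s and the 400s, with 2 KO and 2 WT mice in each. The labels do not call the series a batch. Differences taken within each series had the same sign and exceeded 0.5 in both for 37 higher and 67 lower probe sets, and had opposite signs past 0.5 in 4. Past 1 they were higher in both for 2 and lower in both for 7, with 0 opposite. Myh2, Mybph (-1.53 and -1.78), Pcp4l1 (-1.06 and -1.09) and Map2k6 (-1.19 and -1.32) had mean differences of similar size in both series. For Map2k6 the 400s joined KO 414 at 7.21 and KO 416 at 9.42, and its difference was -0.83 without KO 414. Xirp1 (0.25 and 1.27) and Pde8a (0.22 and 1.15) were larger in the 400s and Glul (1.18 and 0.56, or 0.77 and 0.42 in its second probe set) in the 300s. These genes were chosen for having no overlap between groups, and that choice alone fixes an equal sign in both series. With the series as a block Myh2 was called (limma adjusted p = 0.00539), as 1 probe set of 15767.

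**Figure D4:**
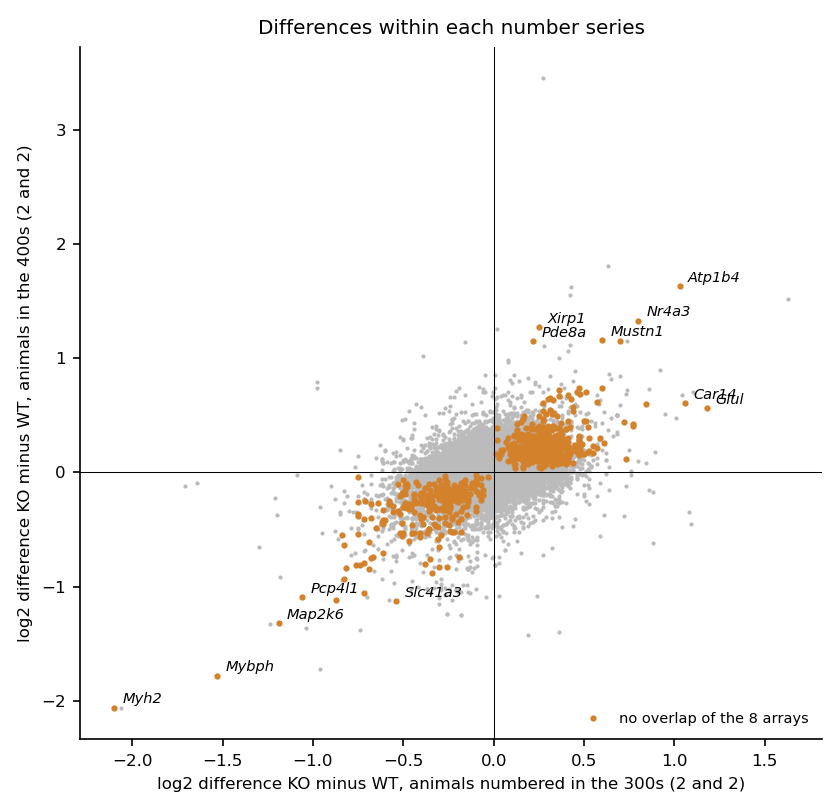
Log2 difference KO minus WT among animals numbered in the 300s (x axis) and in the 400s (y axis), 2 KO and 2 WT mice in each, for all tested probe sets. Orange points have no overlap over all 8 arrays, which by itself places them in the quadrants of equal sign. Myh2 and Mybph are at the lower left and Atp1b4 at the upper right.

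The separated genes that were lower by at least 0.5 were unevenly spread over chromosomes, by their RefSeq (GRCm38.p6) assignment. Chromosome 1, which carries Myl1 and thus the gene whose allele carries Cre, held 953 of the 15767 tested probe sets (6.04%) and 10 of the 39 that were lower by at least 0.5 without overlap, 1.05% of its probe sets against 0.247% overall. The next highest count was 4, on chromosome 11, and the next highest shares were 0.735% on chromosome X and 0.573% on chromosome 14. Without the size limit chromosome 1 stood out less. Of its probe sets 3.25% were below WT on every array, beside 3% on chromosome 12, 2.85% on chromosome 13 and 1.66% of all tested probe sets. In order along chromosome 1 the 10 lower by at least 0.5 were Kcnq5, Ppp1r14bl, Vwa3b, Lancl1, Prkag3, Macir, Mybph, Xpr1, Lrrc52 and Pcp4l1. Ppp1r14bl, Macir and Xpr1 are named here after their values were seen. Lancl1 is the next tested gene beside Myl1. Myl1, a light chain of fast myosin, was itself lower, at 13.91, 13.88, 13.78 and 13.84 in KO and 14.07, 14.00, 14.02 and 13.99 in WT (-0.17, SE 0.05). Of the 20 tested genes nearest to Myl1, 10 on each side, 4 had an unadjusted limma p under 0.05 and 2 had no overlap, where 8.57% and 4.78% of all tested probe sets did. The 2 were Lancl1 and Map2 (-0.26), a microtubule-associated protein named after its values were seen. Of the 20 nearest to Ppp3r1 on chromosome 11, 0 had either, and the difference between the 2 neighbourhoods was not tested. Vwa3b had 4 tested probe sets, of which 1 differed by -0.53 and the others differed by -0.10 to 0.03. That probe set had a KO mean of 6.07, below the floor, and was tested only through its WT level. Whether the position, the allele or the strain carried along with it bears on these genes was not tested.

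**Figure D5:**
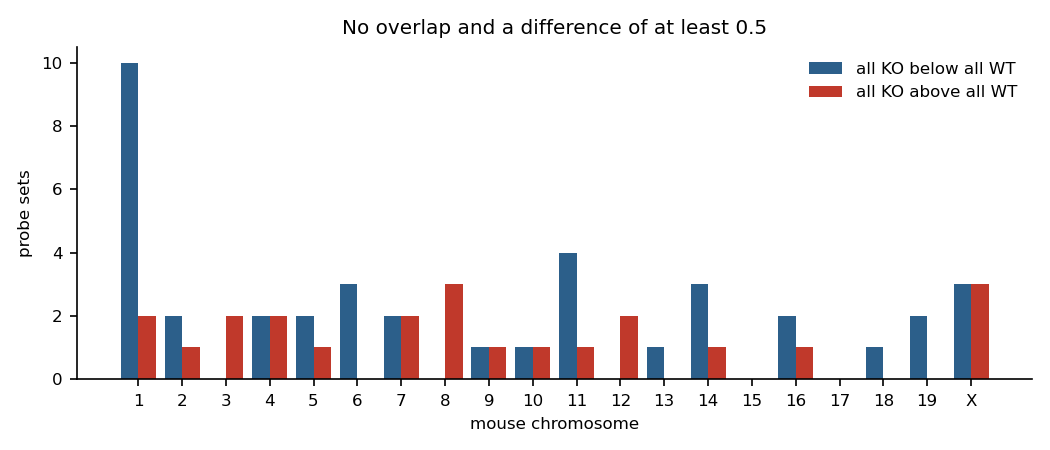
Number of tested probe sets per mouse chromosome (x axis) with no overlap and a difference of at least 0.5, lower in KO (blue) or higher in KO (red). Chromosome 1 has 10 lower probe sets and no other chromosome more than 4.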

How the data were processed

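RNA from gastrocnemius of 16 mice was hybridised to Affymetrix Mouse Gene 1.0 arrays, 1 mouse per array, and the 8 arrays of the Ppp3r1 line were compared as labelled. Log2 intensities were used as deposited; the tools are GCOS 1.0 and RMA, per the submitters' processing notes. The build and the scope of normalization (1 line or both) were not stated. Another deposited log2 table held identical values (0 differed). The deposited ratio columns equal the linear value over the median of the line and were not tested. All 48 columns were matched by name.

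Of 35557 probe sets, 21789 had 1 symbol in the platform annotation, 1621 several and 12147 were unnamed. Those with a mean of at least 6.18, the 30th percentile of the mean over all 16 arrays, were tested, and 6022 were not. Group means were fitted with limma 3.58.1 (R 4.3.3, intensity trend, 6 residual degrees of freedom), adjusted by Benjamini-Hochberg over all 15767. The number of arrays limits the precision. The fit was tested on simulated data. Lists use 1 probe set per gene, the one with the highest mean.

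Genes were named by rule: the calcineurin subunits, Myl1 and 4 myosins; among probe sets without overlap, per direction, the 15 largest differences, 10 widest gaps and 10 smallest p; up to 4 such members per direction and list (2 by p for a list with none) and up to 2 per symbol family. The text describes some of these, picked by function after their values were seen. The members, lists and rule were chosen with earlier results of these data known. Alternatives changed the floor, variance prior, array weights, scaling, probe sets per gene, block and arrays.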

Additional observations from a re-analysis of the deposited data

Results flagged for a closer look

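In 160 groups of 4 arrays, KO or WT of 80 genes, 11 held an array far from the other 3, by Dixon's test on the gap to the nearest of them, and chance alone gives about 8. Animal WT 334 was the distant array in 5 of them. Its log2 intensity was 10.05 for Map2k6 (others 9.57 to 9.64), 10.92 for Dynll2 (10.58 to 10.63), 6.44 for Omp (6.65 to 6.68), 6.45 for Onecut3 (6.80 to 6.84) and 12.87 for Rpl10 (12.99 to 13.00). In each it lay on the side away from the KO arrays, a direction that the choice of genes without overlap largely fixes. Animal WT 415 was high for Cebpb at 7.77 (7.64 to 7.65) and for Chrne at 9.39 (9.02 to 9.04), and WT 336 was low for Dnajb9 at 9.22 (9.82 to 9.83). Among KO mice, 331 was high for Trib3 at 7.46 (7.12 to 7.17) and low for Tead1 at 10.97 (11.26 to 11.30), and 416 was low for Lrrc52 at 6.59 (6.86 to 6.91).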

How the results depend on the processing

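With limma the count of probe sets at an adjusted p under 0.05, 0 as reported, was 1 with all 16 arrays in the fit (Myh2), 1 with 1 probe set per gene, 1 with the animal number series as a block and 5 with array weights (Atp1b4, Lrtm1, Lrrc52, Myh1 and Myh2). It ranged from 0 to 4 when each array was left out in turn; at an adjusted p under 0.1 it was 1. The 1351 at an unadjusted limma p under 0.05 became 2182 with array weights and ranged from 652 to 1980 with an array left out. The 754 without overlap became 485 at the 50th percentile floor and ranged from 909 to 1924, since 7 arrays separate more easily. The 62 without overlap and differing by at least 0.5 ranged from 38 to 210, and 6 differed by at least 1. Of the unadjusted calls 57.5% were higher in KO as deposited, 47.9% at the 50th percentile floor, 65.7% with array weights and 39.8% with centred arrays. Ppp3r1 ranged from -0.36 to -0.25 (exact permutation p = 0.0571) with an array left out, the latter without KO 414, and was -0.32 (exact permutation p = 0.0556) within the number series. Signs reversed for Ppp3cc (-0.02 without KO 414, -0.05 without WT 336, up to 0.13 without KO 331) and Myh7 (-0.09 without WT 415, up to 0.88 without KO 416); the cause was not tested. KO and WT animals share no number, so the number series, not single animals, served as the block.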
